A study of Mus musculus with 4 samples.

Results

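The genes described here are 3 tissue inhibitors of metalloproteinases, Timp1, Timp2 and Timp3, and 4 membrane-anchored proteases of the ADAM family, Adam8, Adam9, Adam15 and Adam19. These 7 genes, of 53379 in the table, were taken by symbol and had been selected on results that included their FPKM in these same libraries, so their differences between the groups are given as a description, with no test. TIMP proteins are secreted inhibitors that occupy the active site of metalloproteinases. ADAM proteins are transmembrane enzymes that cut other membrane proteins close to the cell surface, a step called shedding that releases ligands such as TNF and soluble receptors. Timp3 differs from the other TIMPs in that its protein binds the extracellular matrix and inhibits several ADAM enzymes, Adam17 (the TNF-converting enzyme) among them.

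RNA-seq was performed on group 3 innate lymphoid cells (ILC3s), gut lymphocytes that make IL-22 and IL-17, sorted from the small intestinal lamina propria of mixed bone marrow chimeras. Sublethally irradiated Rag2-/-Il2rg-/- hosts, which lack lymphocytes of their own, received equal numbers of bone marrow cells from 2 donors on a Rag1-/- background, and cells were collected 6 to 7 weeks later. Brg1-sufficient ILC3s (Thy1.2 high, Thy1.1-, CD45 low) came from Rag1-/-Smarca4 f/f donors, and Brg1-deficient ILC3s (Thy1.2 high, Thy1.1+, CD45 low) came from Rag1-/-Smarca4 f/f donors that also carried a Cre transgene, with 2 libraries in each group. Both donors thus carried the floxed Smarca4 allele and lacked T and B cells, and the groups differed in the Cre transgene and in the congenic Thy1.1 marker, so that these 2 differences cannot be told apart. Donor age was not given in the sources used here. The methods call the libraries biological duplicates, and neither they nor the labels say how many mice each one held.

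The level of Smarca4, the Brg1 gene, was examined first. It was 17.07 and 16.73 FPKM with Brg1 and 9.98 and 9.03 FPKM in the deficient libraries, a mean of 56.2% of the sufficient level. A level over the whole gene cannot tell transcripts of a deleted floxed allele from full transcripts. The value is thus no measure of the Brg1 protein that remained, which was not measured in these libraries. The paper reports efficient Brg1 deletion by RT-PCR and flow cytometry, in ILC3s of mice with the genotype of the deficient donors. FPKM by definition counts sequenced fragments relative to transcript length and to the library total, so levels can be compared between genes per unit of length. The deposited values may also have been set to a common distribution, since sorted values agreed within 1% over the libraries at 99.3% of ranks with a mean above 1 FPKM. Ratios, sums and shares below are those of the values as deposited. All 10 ILC3 markers listed, Il22 and Il23r among them, were above 1 FPKM in every library. Correlations of log2(FPKM + 1) between libraries were 0.948 within the Brg1-sufficient group, 0.966 within the Brg1-deficient group and 0.93 to 0.952 between groups. Between 30046 and 36929 genes were listed above 0 in a library. Sequencing depth is unknown because no counts were analysed, and no interval for counting error is given.

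Of the 7 genes, 6 passed the filter of a mean above 1 FPKM in either group, and Timp1 did not. Differences below are Brg1-deficient minus Brg1-sufficient means of log2(FPKM + 1), a scale that understates the change of low genes. Timp3, Timp2, Adam9 and Adam19 were lower in both Brg1-deficient libraries than in either Brg1-sufficient library, Adam8 and Adam15 overlapped between the groups, and 0 of the 6 were higher without overlap. Over all 14739 genes that passed the filter, 20.2% were lower without overlap and 24.4% were higher without overlap, and nothing is read from the count of members because they were chosen with this comparison known.

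**Figure D1:**
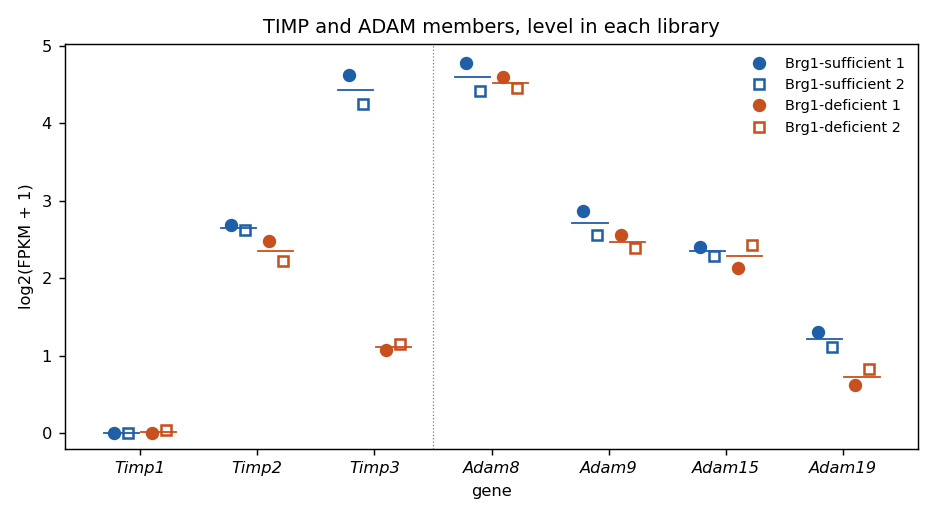
Level of the 7 genes in each library, as log2(FPKM + 1) on the vertical axis, with circles for libraries numbered 1, squares for libraries numbered 2, blue for Brg1-sufficient, orange for Brg1-deficient and a short line for each group mean. Timp3 is the gene with the wide gap between groups, and Adam8 and Adam15 overlap.

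Timp3 had the widest difference of the 7 genes. Its level was 23.49 and 17.99 FPKM in the 2 Brg1-sufficient libraries but 1.10 and 1.23 FPKM in the Brg1-deficient ones (20.74 ± 3.89 and 1.165 ± 0.0919, SD, n = 2 each). Both deficient libraries were far below both sufficient ones, with the lowest sufficient value 14.6-fold above the highest deficient value, while libraries of 1 group differed by 1.31-fold and 1.12-fold. The deficient mean was 5.62% of the sufficient mean, a 17.8-fold ratio of FPKM and a difference of -3.32 on the log2(FPKM + 1) scale. A difference as low as this was found for 10 of the 14739 genes that passed the filter, or 0.0678%, with Timp3 itself counted. Timp3 was chosen with this comparison known, so its place among these genes is a description and not a test.

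Timp3 (ENSMUSG00000020044) lies on the plus strand at chr10:86300372-86349506 of GRCm38, and lies wholly inside Syn3, a synapsin gene of nerve terminals on the opposite strand. The exons of the 2 genes share 1733 bases in the GENCODE annotation. Syn3 was listed at 0.40 and 0.56 FPKM in the sufficient and 0.58 and 0.34 FPKM in the deficient libraries, so its own level overlapped between the groups and was low in all 4. The sources used here do not say that strand was used in counting, and without it reads of overlapping genes on opposite strands cannot be told apart.

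The bases just before the annotated starts of Timp3 and Timp1 are shown because these are the TIMP gene with the widest difference and the TIMP gene at or near 0. Both are on the plus strand, read from the RefSeq promoter windows on GRCm38.p6, 5′ to 3′, with each CpG dinucleotide in capitals. The Timp3 stretch covers chr10:86300162-86300371 and ends at the base before the first annotated start, and the Timp1 stretch covers chrX:20869916-20870165.
Timp3: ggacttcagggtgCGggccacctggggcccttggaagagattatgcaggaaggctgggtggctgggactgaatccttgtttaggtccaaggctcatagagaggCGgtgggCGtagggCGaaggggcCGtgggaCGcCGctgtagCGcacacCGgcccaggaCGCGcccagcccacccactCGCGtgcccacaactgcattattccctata
Timp1: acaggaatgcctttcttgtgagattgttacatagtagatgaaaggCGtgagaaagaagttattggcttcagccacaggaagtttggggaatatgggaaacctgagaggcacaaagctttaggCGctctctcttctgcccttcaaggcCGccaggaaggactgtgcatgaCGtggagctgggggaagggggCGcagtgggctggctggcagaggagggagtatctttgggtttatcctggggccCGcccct
The 210 bases of Timp3 held 13 CpG and had a GC content of 63.8%, and the 250 bases of Timp1 held 6 CpG at 54.4%.

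Promoter windows of 300 bases, from 250 before to 50 after a RefSeq start, were matched by symbol for 6 of the 7 genes, 8 windows in all. Adam9 had no entry. The Timp3 window held 24 CpG, a count reached by 20% of the 32851 windows in the table, and the Timp2 and Adam15 windows held 25 each, reached by 18.4%. The Timp1 and Adam8 windows, with 8 and 6 CpG, were near the median of 7 over all windows, and the 3 windows of Adam19 held 5, 11 and 5. Thus 3 of the 6 genes had CpG-dense windows, and these were 1 gene with a wide difference, 1 with a small difference and 1 that overlapped between groups. The GC box GGGCGG, searched on both strands, occurred 2 times in the Timp3 window, 5 times in the Adam15 window and 1 time each in the windows of Timp1, Timp2 and Adam8 and in the second Adam19 window, against 35.7% of all windows with at least 1. The AP-1 motif TGANTCA (7.81% of all windows) was found only in the second of the Adam19 windows, the T-box motif GGTGTGA (3.98%) only in the first, and the Runx motif TGTGGT (16.8%) in the third and in the Adam15 window. A match is a description of these letters and not evidence of binding.

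Timp2, an inhibitor that also takes part in the activation of the gelatinase Mmp2, was at 5.43 and 5.14 FPKM in the sufficient libraries and 4.58 and 3.67 FPKM in the deficient ones. The groups did not overlap, and the difference of -0.30 (78.1% of the sufficient mean) was small beside that of Timp3. The lowest sufficient value was 1.12-fold above the highest deficient value, and the 2 deficient libraries differed from each other by 1.25-fold. The gene spans chr11:118301069-118355740 on the minus strand, and Cep295nl, which lies inside it on the same strand with 0 shared exon bases, was between 0.03 and 0.33 FPKM in the 4 libraries.

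Timp1, the TIMP that inflammatory cytokines induce in many cell types, was listed at 0 in both Brg1-sufficient libraries and in 1 Brg1-deficient library, and at 0.03 FPKM in the other. With a group at 0, no ratio of levels is given for it. It lies at chrX:20870166-20874735 inside Syn1, on the opposite strand and with 0 shared exon bases, and Syn1 was between 0.03 and 0.18 FPKM. Timp4, the remaining member of the family, was not among the 7 genes and was also near 0, between 0 and 0.29 FPKM. Timp4 lies inside Syn2 (0.15 to 0.62 FPKM) on the opposite strand, so that 3 TIMP genes sit inside synapsin genes and none of these synapsins reached 1 FPKM in any library.

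The summed FPKM of the 4 TIMP genes was 29.1 and 23.32 in the Brg1-sufficient libraries and 5.68 and 5.22 in the Brg1-deficient libraries, and the deficient mean was 20.8% of the sufficient mean. Timp3 made up 80.7% and 77.1% of that sum in the sufficient libraries and 19.4% and 23.6% in the deficient libraries. Timp2 made up 18.7% and 22% in the sufficient and 80.6% and 70.3% in the deficient libraries. The most abundant TIMP transcript per length was thus Timp3 in both sufficient libraries and Timp2 in both deficient ones.

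**Figure D2:**
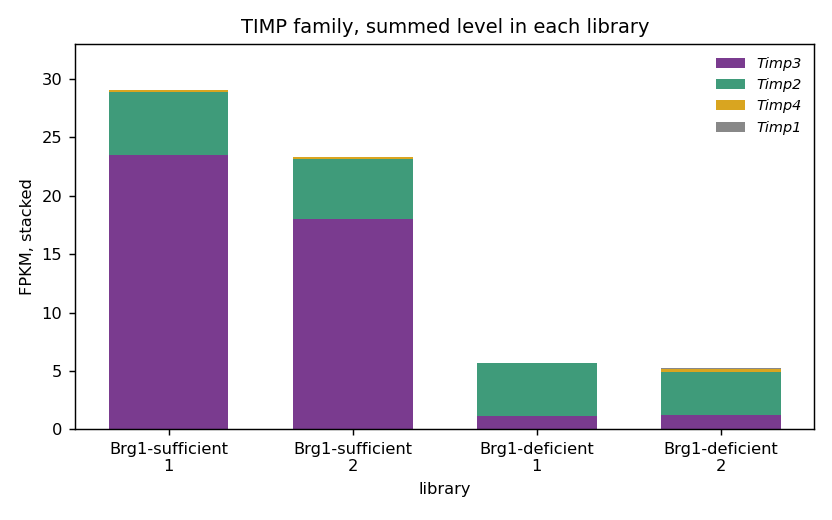
Stacked bars of the FPKM of the 4 TIMP genes in each of the 4 libraries, on a linear axis that starts at 0. The Timp3 segment is the tallest in both Brg1-sufficient libraries and the Timp2 segment in both Brg1-deficient libraries, while Timp4 and Timp1 are hardly visible.

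Adam8, a protease of leukocytes also known as CD156a, was the most abundant of the 4 ADAM members. It was at 26.5 and 20.25 FPKM in the sufficient and 23.1 and 20.91 FPKM in the deficient libraries. Both deficient values lay between the 2 sufficient values, and the difference was -0.07 on the log2(FPKM + 1) scale. The gene, at chr7:139978932-139992562 on the minus strand, shares 46 exon bases with Gm16201, a non-coding transcript on the opposite strand at 38.28 and 36.21 FPKM in the sufficient and 25.15 and 24.66 FPKM in the deficient libraries.

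Adam9 (meltrin gamma), a widely expressed sheddase, was at 6.32 and 4.88 FPKM in the sufficient and 4.87 and 4.22 FPKM in the deficient libraries. The groups were apart by 0.01 FPKM only, so that the lower sufficient and the higher deficient library were at nearly the same level. The 2 sufficient libraries differed from each other by 1.3-fold, and the deficient mean was 81.2% of the sufficient mean, a difference of -0.25 with an SD of 1.02 and 0.46 FPKM within groups. The gene lies at chr8:24949611-25016927 on the minus strand.

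Adam15, or metargidin, whose extracellular part carries an integrin-binding RGD motif in humans, was at 4.29 and 3.89 FPKM in the sufficient and 3.38 and 4.39 FPKM in the deficient libraries. The deficient libraries held both the lowest and the highest of the 4 values, and the difference was -0.07. The gene, at chr3:89338542-89349996 on the minus strand, shares 1263 exon bases with the antisense gene 4731419I09Rik, which was listed at 0 to 0.01 FPKM.

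Adam19, or meltrin beta, a protease that can shed neuregulins, was the lowest of the 4. It was at 1.48 and 1.17 FPKM in the sufficient and 0.54 and 0.78 FPKM in the deficient libraries, and it passed the filter only through the sufficient group. The sufficient mean was 2.01-fold the deficient mean, the lowest sufficient value was 1.5-fold above the highest deficient value, and the 2 deficient libraries differed by 1.44-fold. The difference was -0.49 on the log2(FPKM + 1) scale. The gene lies at chr11:46055992-46147343 on the plus strand and shares exon bases with the antisense genes Gm16033 (0 to 0.21 FPKM) and Gm16034 (0 in every library).

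In the Brg1-sufficient libraries the order of mean FPKM was Adam8, Timp3, Adam9, Timp2, Adam15, Adam19 and Timp1. The ranges of Adam8 and Timp3 overlapped, but Timp3 was below Adam8 within each library (23.49 against 26.5 FPKM and 17.99 against 20.25 FPKM). Adam9 and Timp2 changed order between the 2 libraries (6.32 against 5.43 FPKM and 4.88 against 5.14 FPKM). In the Brg1-deficient libraries Adam8 was again first, Adam9, Timp2 and Adam15 followed with overlapping ranges, and Timp3 lay between Adam15 and Adam19.

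Within the whole ADAM family of 34 genes, the members took places 3 (Adam8), 5 (Adam9), 6 (Adam15) and 9 (Adam19) by mean FPKM over the 4 libraries. The family's summed FPKM was 119.06 and 119.27 in the Brg1-sufficient and 111.33 and 115.23 in the Brg1-deficient libraries, so the deficient mean was 95.1% of the sufficient mean. Adam10, the main sheddase of Notch receptors, was first at 27.52 and 31.42 FPKM in the sufficient and 31.22 and 32.34 FPKM in the deficient libraries, and its groups overlapped. Adam17 was at 26.14 and 27.41 FPKM in the sufficient and 22.83 and 22.89 FPKM in the deficient libraries, lower without overlap. The limma test across all genes gave a difference of 0.11 for Adam10 (SE 0.151, adjusted p = 0.8) and -0.22 for Adam17 (SE 0.145, adjusted p = 0.603). Adam12, a sheddase of growth factor precursors, had 14.49 and 18.76 FPKM in the sufficient and 16.94 and 19.36 FPKM in the deficient libraries (limma adjusted p = 0.815).

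These 4 genes, Adam10, Adam17, Adam8 and Adam12, together made up between 79.6% and 84.4% of the family's sum in each library. Another 21 of the 34 genes were under 1 FPKM in all libraries. Of the 30 ADAM genes that are not members, 7 were tested and 0 passed an adjusted p of 0.05 by limma in either direction, and also 0 had an unadjusted p under 0.05. Adamdec1, a soluble relative made by gut macrophages, was at 1.27 and 3.64 FPKM in the sufficient and 1.09 and 2.68 FPKM in the deficient libraries (adjusted p = 0.873). Adam32 (1.83 and 1.33 against 0.36 and 1 FPKM, limma adjusted p = 0.559) and Adam30 (1.26 and 0.98 against 0.95 and 0.33 FPKM, limma adjusted p = 0.706), genes known mainly from testis, were lower without overlap.

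**Figure D3:**
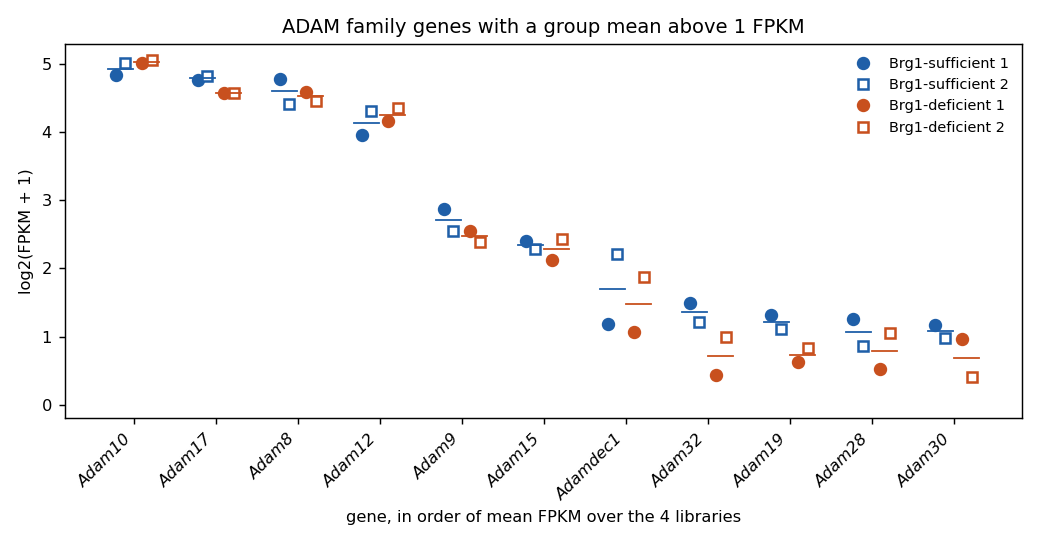
Level of the 11 ADAM family genes with a group mean above 1 FPKM in each library, as log2(FPKM + 1), ordered by mean FPKM, with the same symbols as for the members and a short line for each group mean. Adam10, Adam17, Adam8 and Adam12 stand above the rest, and no gene of the family shows a gap like that of Timp3.

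The ratio of Timp3 to each of its abundant ADAM neighbours shows the same shift on the FPKM scale. Timp3 divided by Adam17 was 0.899 and 0.656 in the Brg1-sufficient libraries and 0.0482 and 0.0537 in the Brg1-deficient libraries. Timp3 divided by Adam10 was 0.854 and 0.573 in the sufficient and 0.0352 and 0.038 in the deficient libraries. Timp3 divided by Adam8 was 0.886 and 0.888 in the sufficient and 0.0476 and 0.0588 in the deficient libraries. In each of the 3 ratios both deficient libraries lay far below both sufficient ones. The differences of Adam17, Adam10 and Adam8 themselves were -0.22, 0.11 and -0.07, so each ratio mainly restates the difference of Timp3. These are ratios of transcript levels, and protein and enzyme activity were not measured.

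A wider list held 124 genes that are not members: the other TIMP and ADAM genes, the membrane inhibitor Reck, the ADAMTS and MMP proteases, the partners that carry ADAM proteins to the surface, the proprotein convertases that remove their prodomains, surface proteins known to be shed, and 4 genes that overlap TIMP genes. Of these, 47 passed the filter, and 1 passed an adjusted p of 0.05 by limma as lower (2.13%) and 0 as higher. Over all genes tested the shares were 0.224% lower and 0.0814% higher, that is 33 and 12 genes. At an unadjusted p under 0.05, 11 of the 47 were lower and 3 higher, against 6.47% and 6.12% of all genes tested. Without overlap, 38.3% of the 47 were lower and 29.8% higher, against 20.2% and 24.4% of all genes tested. The median difference of the 47 genes was -0.15 and that of all genes tested was 0.03. The lists were chosen with earlier results of these data known, so nothing is read from these shares.

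The gene that passed was Mmp23, a membrane-anchored metalloproteinase whose protein also carries a domain that blocks potassium channels. Its level was 20 and 19.61 FPKM in the sufficient and 5.4 and 4.24 FPKM in the deficient libraries. Mmp23 fell by 1.85 on the log2(FPKM + 1) scale (SE 0.188, limma adjusted p = 0.043, lower in 2 of 2 deficient libraries), to 24.3% of the sufficient mean. It lies at chr4:155650655-155653384 on the minus strand. Its adjusted p lay close to the threshold, and the call was lost without either library of either group, without the filter on low FPKM and without the trend in the fit.

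Reck, a membrane-bound inhibitor of MMP and ADAM enzymes, was the only other inhibitor tested. It was at 1.49 and 2.63 FPKM in the sufficient and 0.92 and 0.64 FPKM in the deficient libraries, lower without overlap, and did not pass (difference -0.76, SE 0.352, limma adjusted p = 0.466).

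Of the 23 MMP genes, 17 were under 1 FPKM in all libraries and 6 were tested. Mmp14, the membrane-type collagenase that Timp2 and Timp3 inhibit, was at 1.26 and 1.25 FPKM in the sufficient and 0.33 and 0.13 FPKM in the deficient libraries (limma adjusted p = 0.425). Mmp25, a membrane-anchored MMP of leukocytes, was at 9.17 and 13.31 FPKM in the sufficient and 14.10 and 15.79 FPKM in the deficient libraries (limma adjusted p = 0.533). The gelatinase gene Mmp9 (3.06 and 6.38 against 2.31 and 3.06 FPKM, limma adjusted p = 0.574) and the macrophage elastase gene Mmp12 (1.84 and 4.56 against 1.87 and 4.2 FPKM, limma adjusted p = 0.98) overlapped between the groups. Adamdec1 and Mmp12 were higher in the libraries numbered 2 of both groups, and so were the myeloid genes Lyz2 (84.11 and 202.51 against 64.44 and 191.92 FPKM) and Csf1r (1.60 and 6.88 against 2.35 and 5.99 FPKM). The part of these myeloid transcripts in the levels of Adamdec1 and Mmp12 was not tested.

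Of the 19 ADAMTS genes, secreted proteases of the extracellular matrix, 14 were under 1 FPKM in all libraries, 4 were tested and 0 passed by limma, with 1 at an unadjusted p under 0.05. That gene was Adamts15, at 3.37 and 4.93 FPKM in the sufficient and 7.32 FPKM in both deficient libraries (difference 0.71, limma adjusted p = 0.316). Adamts10, a protease bound to fibrillin microfibrils, was the most abundant, at 12.35 and 23.33 FPKM in the sufficient and 31.31 and 27.59 FPKM in the deficient libraries (difference 0.75, SE 0.306, limma adjusted p = 0.407). Both were higher in the deficient libraries without overlap, the opposite side from Timp3. Adamts14, a procollagen protease (1.95 and 2.35 against 3.07 and 1.70 FPKM, limma adjusted p = 0.938), overlapped between the groups, and Adamts6 (1.74 and 1.16 against 2.50 and 1.83 FPKM, limma adjusted p = 0.652) did not.

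The partners of Adam17 and Adam10 did not pass the test either: of 9 genes, 4 were tested by limma, 0 passed and 0 had an unadjusted p under 0.05. Rhbdf2 (iRhom2), which escorts Adam17 to the surface of immune cells, was at 4.58 and 6.52 FPKM in the sufficient and 8.03 and 7.26 FPKM in the deficient libraries (limma adjusted p = 0.53). Frmd8, which stabilises the iRhom and Adam17 complex, was at 12.98 and 22.49 FPKM in the sufficient and 15.61 and 11.82 FPKM in the deficient libraries (limma adjusted p = 0.695). Of the tetraspanins that accompany Adam10, Tspan14 overlapped (20.19 and 33.92 against 26.12 and 21.07 FPKM, limma adjusted p = 0.85) and Tspan17 was higher in the deficient libraries (0.70 and 0.60 against 1.54 and 2.10 FPKM, limma adjusted p = 0.428).

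Furin, the convertase that activates many ADAM and MMP proenzymes, was the most abundant of the 7 convertases, at 119.97 and 153.80 FPKM in the sufficient and 98.41 and 83.59 FPKM in the deficient libraries. It was lower without overlap (difference -0.58, SE 0.181) and did not pass (limma adjusted p = 0.294). Pcsk7, another convertase of the secretory pathway, was at 14.91 and 20.20 FPKM in the sufficient and 18.06 and 15.01 FPKM in the deficient libraries (limma adjusted p = 0.912). Pcsk4, known from germ cells, was higher in the deficient libraries at a low level (0.25 and 0.88 against 1.78 and 1.43 FPKM, limma adjusted p = 0.494), and Pcsk1 was under 1 FPKM in all 4.

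Of 30 genes for shed surface proteins, 22 were tested and 0 passed by limma. At an unadjusted p under 0.05, 9 were lower and 2 higher, where the shares over all genes tested were 6.47% and 6.12%. Nothing is read from these counts either, because this list too was chosen with earlier results known. The most abundant were Selplg, the ligand of P-selectin, Tnf, the growth factor gene Hbegf and the adhesion gene Icam1. Tnf, the best known Adam17 substrate, was at 138.26 and 231.57 FPKM in the sufficient and 288.39 and 353.13 FPKM in the deficient libraries (difference 0.83, limma adjusted p = 0.316), higher without overlap. Selplg was at 285.12 and 387.07 FPKM in the sufficient and 406.40 and 442.30 FPKM in the deficient libraries (limma adjusted p = 0.517).

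Hbegf was at 160.09 and 147.30 FPKM in the sufficient and 162.13 and 167.78 FPKM in the deficient libraries (limma adjusted p = 0.781), and Icam1 was at 136.81 and 143.86 FPKM in the sufficient and 118.53 and 72.78 FPKM in the deficient libraries (limma adjusted p = 0.419). Of the 22, the largest differences were those of Lag3 and Il1r2. Lag3, an inhibitory receptor that Adam10 and Adam17 shed, was at 13.17 and 18.03 FPKM in the sufficient and 3.04 and 2.25 FPKM in the deficient libraries (difference -2.18, SE 0.242, limma adjusted p = 0.0548). Il1r2, the decoy receptor for IL-1, was at 28.98 and 15.11 FPKM in the sufficient and 5.07 and 5.74 FPKM in the deficient libraries (difference -1.78, SE 0.321, limma adjusted p = 0.113). Timp3, Mmp23, Lag3 and Il1r2 were thus all lower in both deficient libraries, and only Mmp23 among the 3 that were tested passed in this fit, which has no replicate block.

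**Figure D4:**
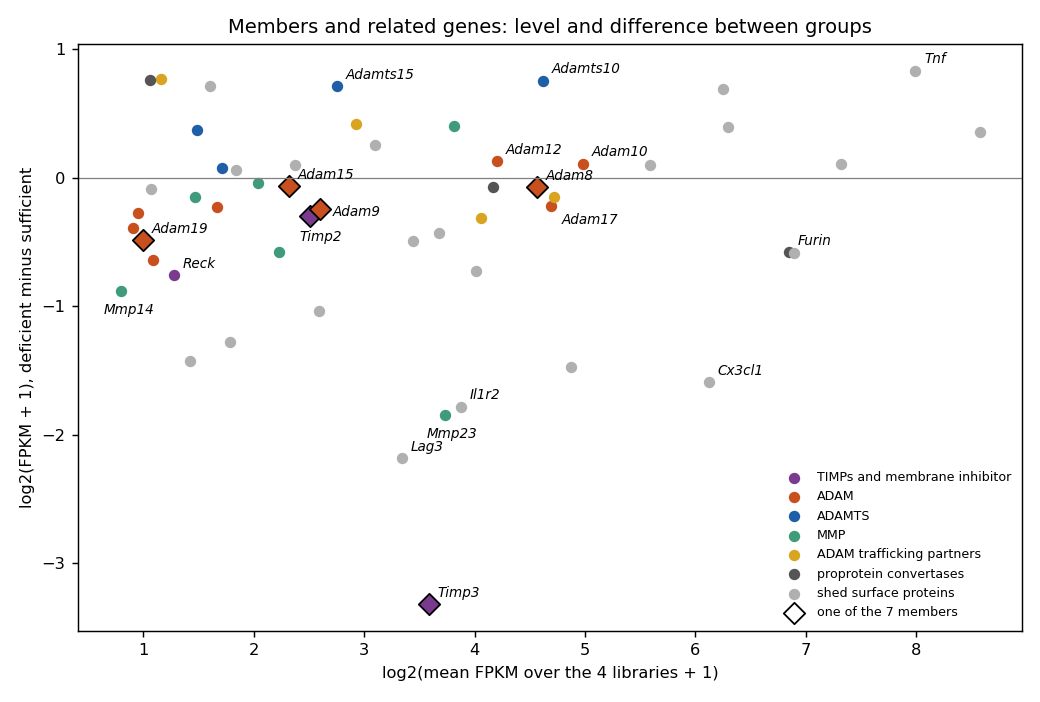
Difference between groups on the vertical axis (log2(FPKM + 1), Brg1-deficient minus Brg1-sufficient) against the log2 of the mean FPKM over the 4 libraries plus 1, for the 6 members and 47 related genes that passed the filter, coloured by list, with diamonds for members. Timp3 is at -3.32, below every other gene plotted, with Lag3 at -2.18 and Mmp23 at -1.85 next.

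The 5 genes whose log2(FPKM + 1) values over the 4 libraries were nearest to those of Timp3, by Euclidean distance, were Myof, H2-Oa, Ly6d, Bmp2 and Il17rb. Myof, which encodes the membrane-repair protein myoferlin, was nearest (distance 0.576), at 21.89 and 14.77 FPKM in the sufficient and 1.97 and 1.21 FPKM in the deficient libraries. H2-Oa, a chain of the MHC class II regulator H2-O, was at 18.41 and 12.61 against 1.44 and 1.4 FPKM (0.634), and Ly6d, a small surface protein of early lymphoid cells, at 23.30 and 14.68 against 0.85 and 2.48 FPKM (0.723). Bmp2, a TGF-beta family ligand, was at 21.27 and 11.16 against 1.92 and 1.27 FPKM (0.812), and Il17rb, the IL-25 receptor chain, at 29.89 and 9.96 against 1.55 and 1.29 FPKM (0.906). With 4 libraries in 2 groups this measure mainly picks genes of like level and like difference.

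In bulk RNA, fewer cells of a type and less RNA per cell cannot be told apart, so levels of other cell type markers are given beside the level of Timp3. The ILC3 list itself summed to 9959.4 and 12288.58 FPKM in the sufficient and 23106.6 and 12314.54 FPKM in the deficient libraries. The ILC2 list summed to 367.4 and 208.11 FPKM in the sufficient and 115.89 and 140.79 FPKM in the deficient libraries, with 9 of its 10 genes lower without overlap and 1 higher. The T cell list summed to 130.52 and 59.2 FPKM in the sufficient and 34.18 and 43.42 FPKM in the deficient libraries, with 4 of 7 genes lower. Of the ILC1 and NK list (246.19 and 367.64 against 256.71 and 248.06 FPKM), 6 of 10 genes were lower without overlap and 1 higher. The higher gene, Klrk1 (104.52 and 112.64 against 165.32 and 189.76 FPKM), had the highest mean of that list in both groups. Over all genes that passed the filter, 20.2% were lower and 24.4% higher without overlap, and nothing is read from the counts of these lists. Ncr1, which encodes NKp46 and marks a subset of ILC3s as well as ILC1s and NK cells, was at 31.32 and 35.54 FPKM in the sufficient and 5.37 and 6.02 FPKM in the deficient libraries. The donors were Rag1-/- and so lacked T cells, and the sort took Thy1.2 high, CD45 low cells. The part of other cells, or of a changed mix of ILC3 subsets, in the level of Timp3 was not tested.

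Within the Brg1-sufficient group, several of these markers differed between the 2 libraries more than Timp3 did. Timp3 differed by 1.31-fold and Ncr1 by 1.13-fold. The ILC2 genes Il17rb and Ccr8 differed by 3.0-fold and 6.15-fold, the T cell receptor gene Trac by 6.92-fold and the myeloid gene Lyz2 by 2.41-fold. Other genes of these lists did not follow this: the T cell genes Cd3e (8.95 and 7.02 FPKM) and Cd4 (43.55 and 32.75 FPKM) differed about as much as Timp3. The ILC2 genes Areg (26.69 and 58.72 FPKM) and Hpgds (2.31 and 6.61 FPKM) were higher in the second sufficient library, unlike Il17rb and Ccr8.

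The sums of the fibroblast and endothelial lists, cell types that make TIMP transcripts in many tissues, overlapped between the groups. The fibroblast list summed to 11.16 and 12.96 FPKM in the sufficient and 14.6 and 11.33 FPKM in the deficient libraries, with 0 of 7 genes lower and 2 higher without overlap, and Col1a1 was between 0.24 and 0.72 FPKM. The endothelial list, nearly all of it Pecam1, summed to 63.79 and 89.62 against 66.38 and 64.66 FPKM, with 2 of 5 genes, Kdr and Emcn, lower without overlap at levels of at most 1.29 FPKM, and the endothelial cadherin gene Cdh5 was at or below 0.29 FPKM. The sum of the myeloid list, mostly Lyz2, followed the library number rather than the group, at 109.24 and 241.12 against 81.26 and 222.87 FPKM. Of its 10 genes, 3 were lower without overlap and 0 higher. These were Adgre1 (5.76 and 6 against 2.09 and 3.67 FPKM), S100a8 (1.46 and 1.63 against 0.48 and 1.07 FPKM) and Flt3, which was under 1 FPKM in every library. The mast cell list was at 11.04 and 9.08 against 6.96 and 7.18 FPKM, and the list of B and plasma cells, mostly Sdc1, at 106.63 and 146.81 against 131.58 and 126.35 FPKM. The epithelial list was higher in the deficient libraries, 20.05 and 16.77 FPKM against 4.82 and 6.7 FPKM in the sufficient libraries, through Krt18 (15.72 and 12.92 against 2.02 and 3.48 FPKM), while Epcam was lower (0.68 and 0.54 against 1.5 and 1.79 FPKM). No list had a gene at 0 in all 4 libraries. The shares over all genes that passed the filter were 20.2% lower and 24.4% higher without overlap, and nothing is read from the counts of these lists either.

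**Figure D5:**
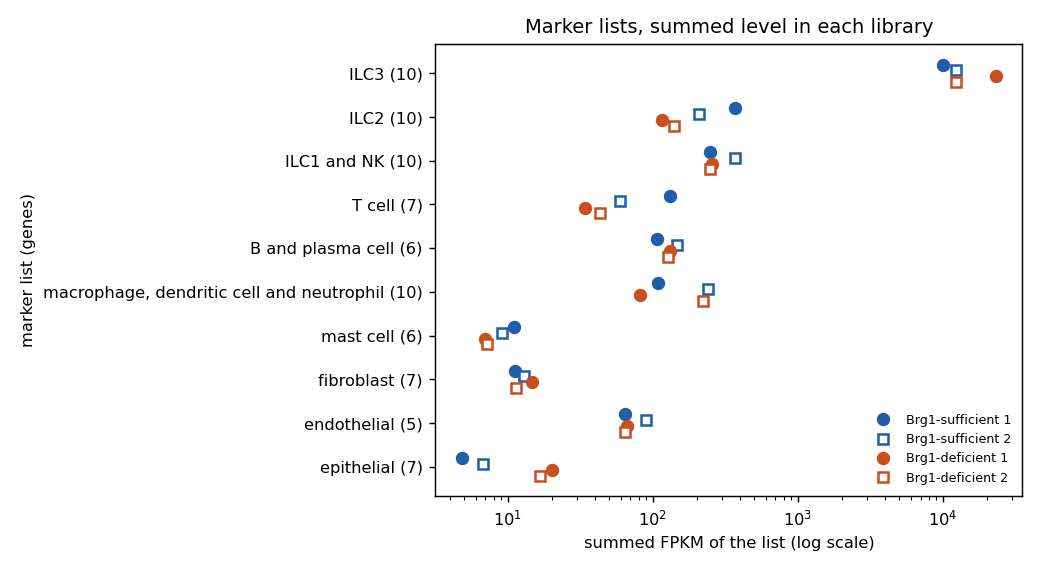
Summed FPKM of each of 10 marker lists in each library, on a log axis, with the number of genes of each list in brackets and circles and squares for libraries numbered 1 and 2. The ILC3 list is highest in every library, the ILC2 and T cell lists are lower and the epithelial list higher in both Brg1-deficient libraries, and the myeloid list is higher in the libraries numbered 2 of both groups.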

How the data were processed

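The 4 libraries were made from poly-A RNA as PCR-amplified cDNA, and the sources used here give more than 1 read length. The authors mapped reads with STAR 2.5 and estimated levels with RSEM 1.2 on GRCm38.p5, per the submitters' processing notes, and deposited 1 FPKM value for each gene in each library, rounded to 2 decimals. At 99.3% of the 13693 ranks with a mean above 1 FPKM, sorted values agreed within 1% over the libraries, as values set to a common distribution would, although no source used here states this step. Whole reads could not be recovered from such values, and depth is unknown. Libraries were grouped by donor genotype from the labels. The deposited table has 0 sample columns that were not used, and ATAC-seq data were not analysed here. The driver of the Cre transgene is not reported here.

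Genes with a mean above 1 FPKM in either group were tested with limma 3.58.1 (lmFit, eBayes with trend) under R 4.3.3. Values entered as log2(FPKM + 1), and p-values were adjusted by Benjamini-Hochberg over all genes tested. P-values rest on the spread between 2 libraries a group, moderated by a variance trend shared over all genes tested. An exact 2-sided permutation test of 2 against 2 cannot go below 0.33. A group was lower or higher without overlap when both its values lay beyond both of the other group. Members and lists were chosen with earlier results of these data known. Named were all members, Smarca4, and from each related list the genes with an adjusted p under 0.05, the 4 with the highest mean FPKM and the 2 with the largest difference without overlap. Also named were the genes overlapping TIMP genes, the 5 nearest to Timp3 and marker genes needed to give a level. Genes overlapping ADAM members, Mmp12, Adamdec1 and Csf1r in their relation to library number, and Cx3cl1, were singled out after their values were seen.

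Coordinates and overlaps came from GENCODE on GRCm38, and promoter windows from RefSeq on GRCm38.p6, with Python 3.11.15 and pandas 2.3.3. The fit was tested on simulated data. Alternatives were a replicate block, a pseudocount of 0.1, no filter, no trend, quantile normalization and leaving out each library.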

Additional observations from a re-analysis of the deposited data

How the results depend on the processing

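With 2 libraries a group the calls rest on a variance shared over genes, and depth limits for low genes are unknown. A pseudocount of 0.1 kept all counts of calls within 1.5-fold of those reported. Quantile normalization could move little, since the deposited values already shared nearly 1 distribution, and is no sign of stability. Without the filter on low FPKM, and also without the trend, 0 genes were called lower and 0 higher by limma over the whole table, and 0 related genes lower, although 1400 and 1308 genes (no filter) and 965 and 903 genes (no trend) had an unadjusted p under 0.05. Without the filter 44235 genes were tested. The reason for the loss without the trend was not tested. Leaving out each library in turn, which leaves 1 group with a lone library assumed to vary like the others, gave 0 calls in each count, with 507 to 1675 genes lower and 735 to 1507 higher at an unadjusted p under 0.05.

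Under a replicate block the counts were 248 lower and 150 higher over the whole table and 4 related genes lower, Mmp23 (limma adjusted p = 0.00332), Lag3 (0.0038), Cx3cl1 (0.00863) and Il1r2 (0.0118). The shared numbers are not said to pair the libraries, and the deviations of same-numbered libraries had a correlation of -0.000386, so the block is given only here.

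With a pseudocount of 0.1, which by construction stretches low values, the differences were -4.03 for Timp3, -0.92 for Adam19 and 0.19 for Timp1, which has both sufficient libraries at 0, so that this value depends on the pseudocount and is no measure of a fold. Leaving out each library moved the difference of Timp3 between -3.50 and -3.13, Timp2 between -0.43 and -0.17, Adam9 between -0.40 and -0.09, and Adam19 between -0.59 and -0.38. Adam8 lay between -0.26 and 0.11, with a change of sign without Brg1-sufficient replicate 1, and Adam15 between -0.22 and 0.08, with a change of sign without Brg1-deficient replicate 1.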
